A study of Mus musculus with 6 samples.

Results

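The subject is a set of 8 mouse genes for adaptor proteins of the cardiomyocyte that respond to stretch, namely Ankrd1, Ankrd2, Xirp1, Xirp2, Csrp3, Fhl1, Fhl2 and Nrap. They were taken by symbol from the 18019 gene IDs of an expression table of mouse hearts. All 8 were found and all 8 passed a filter at a mean of 1 FPKM, which left 11422 genes to test. FPKM counts fragments per kilobase of gene and is scaled to library size. The hearts came from mice of wild-type genotype, examined 8 weeks after transverse aortic constriction (TAC), an operation that makes the left ventricle pump against a narrowed aorta. In the VNS-TAC group the virus rAAV-ChAT-hChR2[H134R]-GFP had been placed in the dorsal vagal motor nucleus (DVMN). It carries a light-gated channel, driven by the promoter of choline acetyltransferase, through which vagal preganglionic neurones can be activated. Library names of the VNS-TAC group carry the tag X10Hz_TAC. The Ctrl-TAC group received rAAV-ChAT-GFP, a virus with the fluorescent protein and no channel. Both groups had TAC, so the table holds no unloaded heart. Each group had 3 libraries of heart RNA. Groups follow the sample titles, because a treatment tag reads VNS for the controls too. The sources used here give no strain, sex or age and do not state that each library came from its own animal. All p-values therefore reflect library-to-library spread, part of which may be technical.

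These proteins sit where force passes through the cardiomyocyte. Ankrd1 and Ankrd2 are ankyrin repeat proteins that bind titin in the I-band and can move to the nucleus. Xirp1 and Xirp2 are Xin actin-binding repeat proteins of the intercalated disc, the junction between cardiomyocytes. Csrp3, also called muscle LIM protein, Fhl1 and Fhl2 are built of LIM domains and lie at the Z-disc or on titin. Nrap is a nebulin family protein with a LIM domain that takes part in myofibril assembly and lies at the intercalated disc. Several of these genes are known to be induced when the heart is overloaded.

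The upstream sequences of Xirp2, Ankrd1 and Csrp3 are shown first, because Xirp2 and Ankrd1 had the lowest fold changes and Csrp3 the smallest difference between groups, all on the log2 scale. Each is the 250 bases before an annotated start in RefSeq (GRCm38.p6), 5′ to 3′ on the strand of the gene. Capitals mark matches to motifs of factors known in heart muscle or in stretch responses.
Xirp2, chr2:67445752-67446001, plus strand: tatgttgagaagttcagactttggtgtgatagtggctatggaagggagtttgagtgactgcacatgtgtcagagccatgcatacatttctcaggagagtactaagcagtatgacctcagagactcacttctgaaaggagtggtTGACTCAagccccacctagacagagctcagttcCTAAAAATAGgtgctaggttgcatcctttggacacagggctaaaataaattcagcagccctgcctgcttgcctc
Ankrd1, chr19:36119845-36120094, minus strand: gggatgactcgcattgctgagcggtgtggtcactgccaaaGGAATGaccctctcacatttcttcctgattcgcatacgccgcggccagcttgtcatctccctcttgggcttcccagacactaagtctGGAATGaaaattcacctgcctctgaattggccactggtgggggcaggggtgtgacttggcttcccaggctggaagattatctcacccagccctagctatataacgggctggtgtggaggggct
Csrp3, chr7:48848052-48848301, minus strand: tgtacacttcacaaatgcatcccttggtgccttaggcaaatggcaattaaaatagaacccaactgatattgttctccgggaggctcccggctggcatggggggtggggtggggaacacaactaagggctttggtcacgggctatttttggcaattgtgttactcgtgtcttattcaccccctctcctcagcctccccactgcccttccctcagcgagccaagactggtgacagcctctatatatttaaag
The motifs, searched on both strands, were CATTCC (bound by TEAD factors), TGANTCA (AP-1), TATAAA (the TATA box), GATAAG (zinc-finger factors such as Gata4), the CArG box (serum response factor) and the MEF2 box. The Xirp2 window held 1 TGANTCA match, 101 to 107 bases before the start, and 1 MEF2 box at 65 to 74 bases. The Ankrd1 window held CATTCC on the opposite strand at 118 to 123 and at 205 to 210 bases before the start. The Csrp3 window held none of these letters. Of 32851 promoters of the same length, 12.6% held CATTCC, 6.75% TGANTCA and 2.92% a MEF2 box. RefSeq gave 10 promoters for 7 of the 8 genes. Among these 10, a CArG box lay in 3 (1 of Fhl1 and both of Fhl2), against 1.47% of all promoters. CATTCC was found in the Ankrd1 promoter and in no other of the 10. A match is a run of letters and was not tested as a binding site.

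The depth was about 13860000 to 15980000 fragments per library, estimated from the steps of low values in short genes. The 3 Ctrl-TAC libraries lay close together, whereas VNS-TAC 1 and VNS-TAC 3 stood apart. The share of genes more than 0.5 (log2) from the Ctrl-TAC mean was 25.4%, 6.86% and 27.0% for VNS-TAC 1, 2 and 3. It was 0.517% to 1.2% for the Ctrl-TAC libraries, which themselves set that mean. The VNS-TAC libraries carry the numbers of the table, which differ from those in the library names of the labels. The cardiac identity of the tissue was plain, with all 18 cardiomyocyte markers past the filter. Their summed level was 73764 to 114246 FPKM in VNS-TAC and 84783 to 88254 FPKM in Ctrl-TAC. The skeletal myosin genes Myh1, Myh2 and Myh4 were at or below 0.06 FPKM in all 6 libraries. Other markers of the same fast skeletal list were expressed. Myl1 was at 18.28 to 41.93 FPKM in VNS-TAC and 31.11 to 85.46 FPKM in Ctrl-TAC. Mybpc2 was at 13.19 to 20.16 FPKM in VNS-TAC and 22.75 to 38.63 FPKM in Ctrl-TAC.

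VNS-TAC hearts were set against Ctrl-TAC hearts to ask how vagal activation alters these genes under overload. All 8 had a lower mean log2 value in VNS-TAC, as did 61.8% of all genes tested. Xirp2 had the largest difference on the log2 scale, at 32.3 ± 15.7 FPKM in VNS-TAC against 114.3 ± 36.0 in Ctrl-TAC (SD, n = 3). None of the 8 passed the adjusted threshold of 0.05 in limma, the test fitted across all genes, and neither did any other gene (0.0% called). At an unadjusted p under 0.05, 1 of the 8 was lower and 0 higher, while 11.3% of all genes were lower and 3.79% higher. The libraries did not overlap for 2 of the 8, Xirp2 and Fhl1, both lower, against 17.4% of all genes lower and 8.01% higher without overlap. These shares are near the background. The median log2 fold change of the 8 was -0.34, against -0.08 for all genes, whose quartiles were -0.28 and 0.1. Without VNS-TAC 3 it was -0.22, against -0.10.

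**Figure D1:**
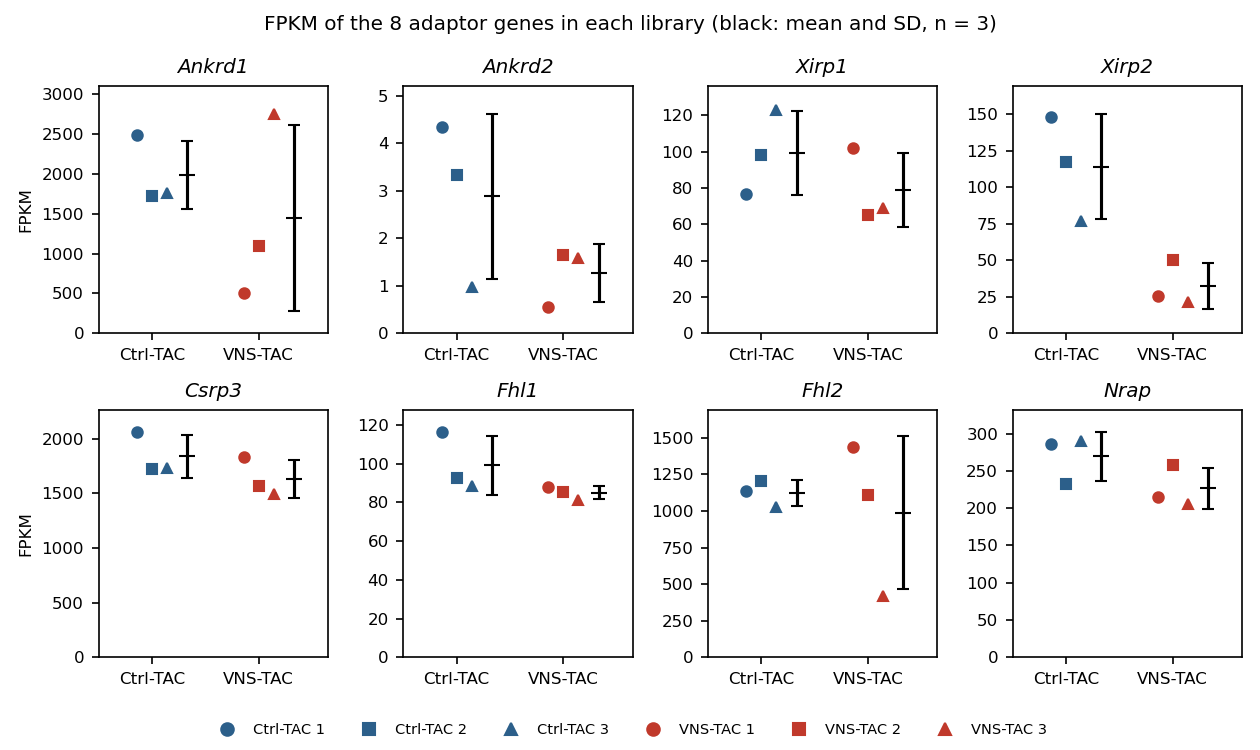
FPKM of each adaptor gene (vertical axes, linear from 0) in the 3 Ctrl-TAC libraries (blue) and the 3 VNS-TAC libraries (red), with black marks for the mean and SD. The Xirp2 points of VNS-TAC (21.35 to 50.32 FPKM) lie below all Ctrl-TAC points (76.81 to 148.52 FPKM), whereas Ankrd1 and Fhl2 are spread widely within VNS-TAC.

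The order of the levels, which FPKM allows because it is per kilobase, was Ankrd1, Csrp3, Fhl2, Nrap, Xirp2, Xirp1 and Fhl1, and then Ankrd2 in Ctrl-TAC. Ankrd1 at 1986 ± 428 FPKM and Csrp3 at 1840 ± 196 FPKM did not differ beyond their spread, nor did Xirp2 (114.3 ± 36.0), Xirp1 (99.4 ± 23.0) and Fhl1 (99.1 ± 15.2) (SD, n = 3). Ankrd2 at 2.89 ± 1.74 FPKM was far below the other adaptors. In VNS-TAC the mean of Xirp2 lay below those of Fhl1 (84.9 ± 3.39 FPKM) and Xirp1 (78.9 ± 20.3 FPKM), and Csrp3 at 1633 ± 176 FPKM was the highest.

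Xirp2 (chromosome 2, 67446000 to 67526620, GRCm38), also called myomaxin, cross-links actin at the ends of the cardiomyocyte. It was at 148.52, 117.45 and 76.81 FPKM in libraries Ctrl-TAC 1, 2 and 3, and at 25.36, 50.32 and 21.35 FPKM in libraries VNS-TAC 1, 2 and 3. Every VNS-TAC library was therefore below every Ctrl-TAC library. The log2 fold change was -1.84 ± 0.35 (SE; 95% interval -2.66 to -1.01), or 0.28 times the Ctrl-TAC level. Its limma p was 0.00105 before and 0.186 after Benjamini-Hochberg adjustment. Of the 11422 genes tested, 11 had a lower log2 fold change. The 2-sided exact permutation test of this gene gave p = 0.1, the smallest that 3 libraries against 3 allow. Any gene without overlap between the groups gets this value, as Fhl1 did, so it adds nothing to the lack of overlap. Leaving out any 1 library left the log2 fold change between -2.2 and -1.6.

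Xirp2 has a long transcript, of 11979 bases, with a GC content of 42.2%. Genes with transcripts of at least 10000 bases (258 genes) had a median difference of -0.26 on the log2 scale, and the 1241 genes under 42% GC one of -0.29. In VNS-TAC 1, 2 and 3 the first class lay at -0.52, -0.14 and -0.04 relative to Ctrl-TAC, and Xirp2 at -2.08, -1.12 and -2.32. With the trend on length or the trend on GC removed from each library, the log2 fold change of Xirp2 was -1.59 in both cases, with an adjusted p of 0.222 and 0.218 in limma.

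Xirp1 (chromosome 9, 120013755 to 120023598), is the Xin gene first described in heart. It was at 76.82, 98.44 and 122.86 FPKM in libraries Ctrl-TAC 1, 2 and 3, and at 102.22, 65.35 and 69.04 FPKM in libraries VNS-TAC 1, 2 and 3. The groups overlapped, VNS-TAC 1 lying above 2 of the Ctrl-TAC libraries. The log2 fold change was -0.33 ± 0.23 (SE; 95% interval -0.87 to 0.20; limma adjusted p = 0.498). It was -0.53 without VNS-TAC 1, -0.50 without Ctrl-TAC 1, -0.21 without VNS-TAC 2, -0.17 without Ctrl-TAC 3 and -0.18 with the length trend removed.

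The ratio of Xirp2 to Xirp1 within a library, which no rescaling of libraries can alter, was 0.248, 0.77 and 0.309 in VNS-TAC 1, 2 and 3. In Ctrl-TAC 1, 2 and 3 it was 1.93, 1.19 and 0.625. The groups overlapped, because VNS-TAC 2 lay above Ctrl-TAC 3. The mean log2 ratio was -1.36 ± 0.87 against 0.18 ± 0.82 (SD, n = 3), a difference of -1.54 (2-sided exact permutation p = 0.2, and 0.6 adjusted over the 3 ratios computed). A separate response of the pair was thus not shown at this number of libraries.

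**Figure D2:**
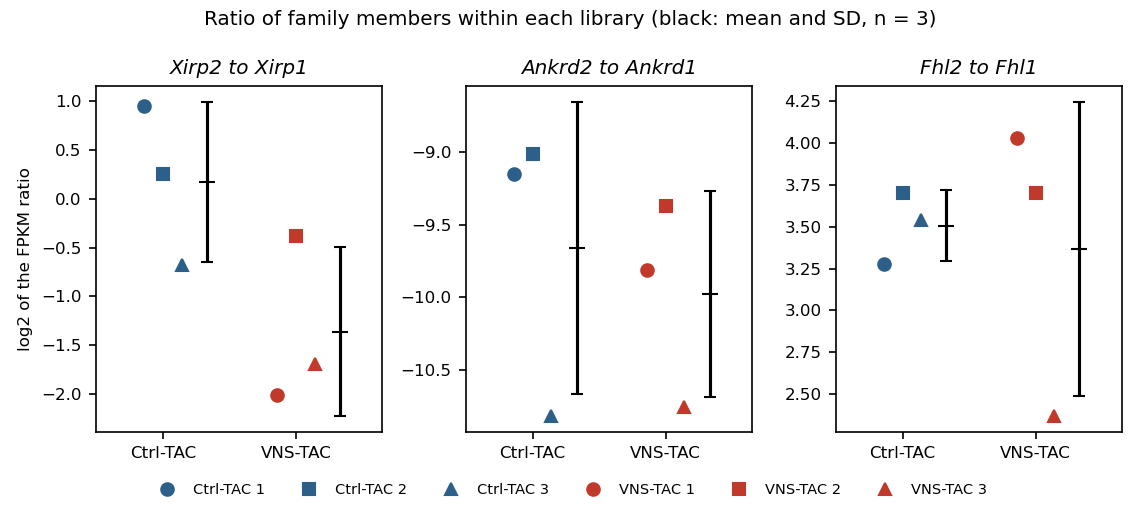
Log2 of the FPKM ratio of 2 members of one protein family in each library (blue Ctrl-TAC, red VNS-TAC; black marks are the mean and SD). The Xirp2 to Xirp1 ratios are lower on average in VNS-TAC but overlap, and the Fhl2 to Fhl1 ratio of VNS-TAC 3 (2.37) lies below the other 5 libraries.

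Ankrd1 (chromosome 19, 36111965 to 36119844), the cardiac ankyrin repeat protein and a widely used target gene of YAP and TEAD, varied most within VNS-TAC. It was at 2479.64, 1718.77 and 1758.56 FPKM in libraries Ctrl-TAC 1, 2 and 3, and at 501.91, 1097.93 and 2745.64 FPKM in libraries VNS-TAC 1, 2 and 3. VNS-TAC 1 and VNS-TAC 2 lay below, and VNS-TAC 3 above, all Ctrl-TAC libraries. The coefficient of variation was 80.2% in VNS-TAC and 21.6% in Ctrl-TAC. The difference on the log2 scale was -0.77 ± 0.55 (SE; 95% interval -2.06 to 0.52; limma adjusted p = 0.515). It was -1.40 without VNS-TAC 3 (adjusted p = 0.163) and -0.17 without VNS-TAC 1 (adjusted p = 0.819), so its size turned on which library was kept.

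Ankrd2 (chromosome 19, 42035917 to 42045111) is the relative known mainly from slow skeletal muscle. It was at 4.35, 3.34 and 0.97 FPKM in libraries Ctrl-TAC 1, 2 and 3, and at 0.56, 1.66 and 1.58 FPKM in libraries VNS-TAC 1, 2 and 3. At the estimated depth these levels correspond to about 73, 53 and 17 fragments in the controls and 10, 28 and 28 fragments in VNS-TAC. VNS-TAC 2 and VNS-TAC 3 lay above Ctrl-TAC 3 and below the other controls. On the log2 scale VNS-TAC minus Ctrl-TAC came to -0.70 ± 0.39 (SE; 95% interval -1.61 to 0.21; limma adjusted p = 0.415), a scale that understates differences of low genes, and -1.02 with a pseudocount of 0.1. It was -1.13 without Ctrl-TAC 3, -0.41 without Ctrl-TAC 1 and -0.45 without VNS-TAC 1. The ratio of Ankrd2 to Ankrd1 did not differ detectably, with a mean log2 ratio of -9.98 ± 0.71 against -9.66 ± 1.01 (SD, n = 3; exact permutation p = 0.6, adjusted p = 0.9).

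Csrp3 (chromosome 7, 48830398 to 48848051), the muscle LIM protein of the Z-disc, was among the steadiest of the 8. It was at 2065.91, 1722.85 and 1729.93 FPKM in libraries Ctrl-TAC 1, 2 and 3, and at 1832.33, 1570.78 and 1496.47 FPKM in libraries VNS-TAC 1, 2 and 3. VNS-TAC 1 lay above 2 of the controls and the other VNS-TAC libraries below all 3. The estimated log2 difference was -0.17 ± 0.16 (SE; 95% interval -0.54 to 0.20; limma adjusted p = 0.6). It was -0.26 without VNS-TAC 1, -0.11 without VNS-TAC 3 and -0.09 without Ctrl-TAC 1. Other processing moved it from -0.30 (quantile normalization) to -0.09 (size factors) and -0.05 (GC trend removed).

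Fhl1 (chromosome X, 56731209 to 56793346) encodes a four-and-a-half LIM protein that binds the titin spring region. It was at 116.49, 92.61 and 88.35 FPKM in libraries Ctrl-TAC 1, 2 and 3, and at 88.05, 85.44 and 81.32 FPKM in libraries VNS-TAC 1, 2 and 3. The groups did not overlap, but VNS-TAC 1 and Ctrl-TAC 3 lay side by side. The difference on the log2 scale was -0.21 ± 0.14 (SE; 95% interval -0.53 to 0.11; limma adjusted p = 0.475). It was -0.09 without Ctrl-TAC 1, the highest library, and -0.13 with size factors.

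Fhl2 (chromosome 1, 43123071 to 43198343) is the heart-enriched relative of Fhl1, which anchors metabolic enzymes to titin and acts as a cofactor of transcription. It was at 1135.44, 1201.82 and 1029.72 FPKM in libraries Ctrl-TAC 1, 2 and 3, and at 1439.35, 1108.48 and 419.65 FPKM in libraries VNS-TAC 1, 2 and 3. VNS-TAC 3 was low, VNS-TAC 1 was above all controls and VNS-TAC 2 lay among them. On the log2 scale VNS-TAC minus Ctrl-TAC came to -0.36 ± 0.42 (SE; 95% interval -1.34 to 0.62; limma adjusted p = 0.683). Without VNS-TAC 3 it was 0.17, so the direction rested on that library, and without VNS-TAC 1 it was -0.71. It was -0.55 after quantile normalization and -0.11 with array weights, a fit that weights libraries by their agreement.

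The low Fhl2 value of VNS-TAC 3 came with low values of several cardiomyocyte genes in the same library. Actc1, cardiac actin, was at 2666.55 FPKM there against 8957.82 to 14017.97 FPKM in the other 5 libraries, and Mb, myoglobin, at 8162.79 FPKM against 12414.54 to 16894.16 FPKM. Tnnt2, cardiac troponin T, went the other way, at 15153.78 FPKM against 7013.94 to 9578.57 FPKM. The 18 cardiomyocyte markers deviated on average by 0.27, 0.14 and -0.33 from Ctrl-TAC in libraries VNS-TAC 1, 2 and 3. In whole-heart RNA, fewer cells of a type and less RNA per cell cannot be told apart. With each library expressed relative to these markers, the log2 fold change of Fhl2 was -0.38 and that of Xirp2 -1.86. The ratio of Fhl2 to Fhl1 was 9.75, 13.0 and 11.7 for Ctrl-TAC 1, 2 and 3, and 16.3, 13.0 and 5.16 for VNS-TAC 1, 2 and 3 (exact permutation p = 0.9 on the log2 scale, adjusted p = 0.9).

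Nrap (chromosome 19, 56320037 to 56390062), which binds actin, alpha-actinin and vinculin, was at 285.58, 232.04 and 290.54 FPKM in libraries Ctrl-TAC 1, 2 and 3, and at 215.34, 257.47 and 206.22 FPKM in libraries VNS-TAC 1, 2 and 3. VNS-TAC 2 lay above Ctrl-TAC 2, and the other VNS-TAC libraries were below all controls. The estimated log2 difference was -0.25 ± 0.15 (SE; 95% interval -0.60 to 0.10; limma adjusted p = 0.443), and -0.10 both with the length trend removed and with array weights.

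**Figure D3:**
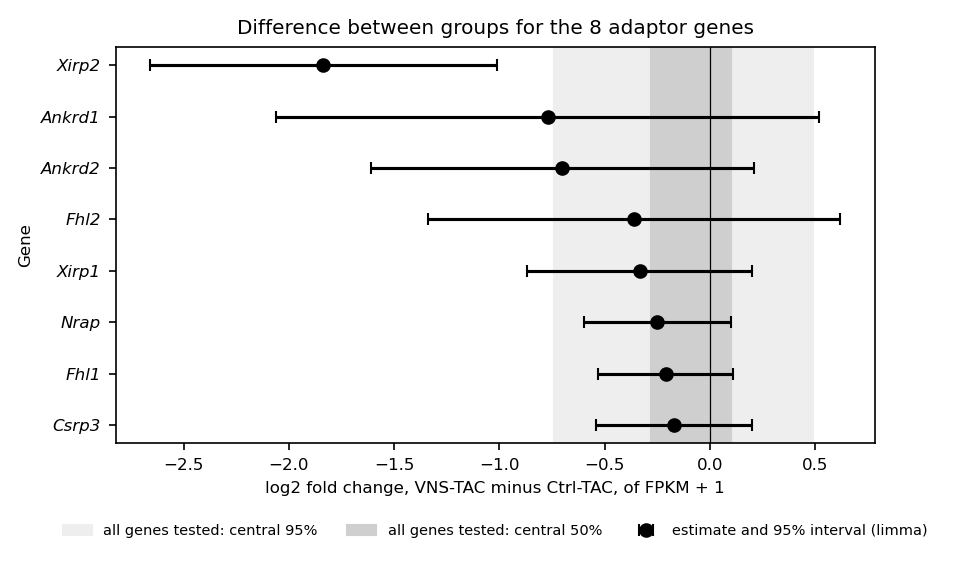
VNS-TAC minus Ctrl-TAC difference (log2) for each adaptor gene with its 95% interval from limma (black), over the range between the quartiles (dark grey) and central 95% (light grey) of all 11422 genes tested. Xirp2 is the only 1 of the 8 whose interval (-2.66 to -1.01) excludes 0; these intervals are not adjusted for the number of genes.

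The members did not move as one across libraries. After centring each gene on its own mean, Csrp3 and Fhl1 were most alike, with a mean absolute difference of 0.06 (log2) over the 6 libraries. Nrap lay 0.15 from each of them. Ankrd1 and Fhl2 were least alike, at 0.94, since VNS-TAC 3 had the highest Ankrd1 and the lowest Fhl2. Xirp2 lay 0.85 from Xirp1, and its nearest member was Ankrd2, at 0.57. The mean of the 8 relative to Ctrl-TAC was -0.66, -0.43 and -0.64 in libraries VNS-TAC 1, 2 and 3 (-0.18 to 0.19 among controls). Their median was closer to the controls, at -0.24, -0.32 and -0.42 in these libraries (-0.14 to 0.21 among controls). Xirp2 was the lowest member in each of the 3, followed by Ankrd1 in VNS-TAC 1 and by Fhl2 in VNS-TAC 3.

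**Figure D4:**
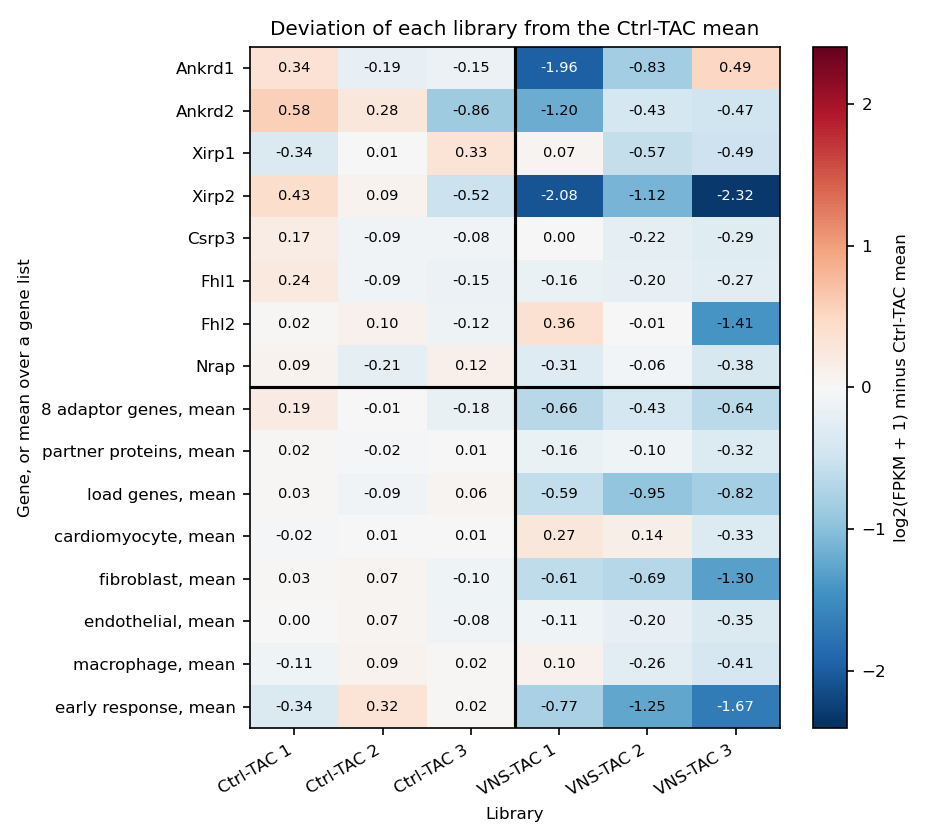
Deviation of log2(FPKM + 1) from the Ctrl-TAC mean in each library (columns), for each adaptor gene (upper rows) and for the mean of gene lists (lower rows), blue for lower and red for higher. Xirp2 is low in all 3 VNS-TAC libraries (-2.08, -1.12 and -2.32), whereas Ankrd1 is low in VNS-TAC 1 (-1.96) and Fhl2 in VNS-TAC 3 (-1.41).

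**Figure D5:**
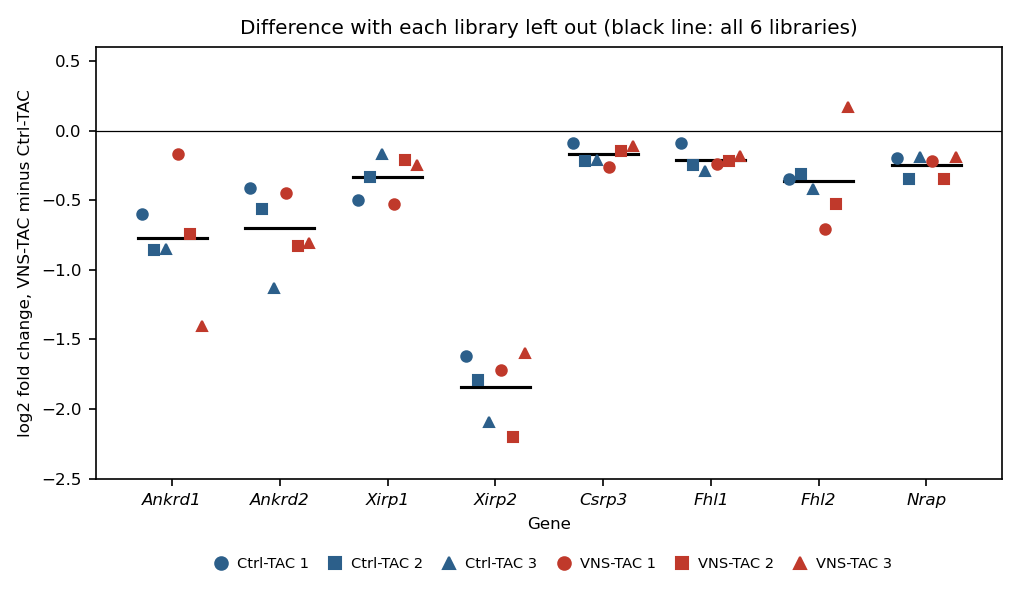
Log2 fold change of each adaptor gene with all 6 libraries (black lines) and with 1 library left out (points, marked by the library left out). Ankrd1 stands at -0.77 in full, at -1.40 without VNS-TAC 3 and at -0.17 without VNS-TAC 1, Fhl2 changes sign without VNS-TAC 3 (0.17), and Xirp2 stays between -2.2 and -1.6.

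The genes whose profile over the 6 libraries was most like that of Xirp2 were Col8a1, Pde7b, Fmod, Itgbl1 and Ogn, at mean absolute differences of 0.22 to 0.25 (log2), against a median of 0.88 over all genes. Because they were picked by likeness to Xirp2 in these same libraries, their difference between groups follows from the choice. Col8a1, a network collagen, was at 1.77 to 4.04 FPKM in VNS-TAC and 10.31 to 13.69 in Ctrl-TAC. Fmod, the collagen-binding proteoglycan fibromodulin, was at 0.9 to 2.81 FPKM against 5.91 to 7.19, and Ogn, the related osteoglycin, at 6.25 to 15.83 against 17.07 to 32.93. Several of these are known as matrix genes of fibroblasts. All 12 fibroblast markers were lower on average, with a median log2 fold change of -0.83 against -0.08 for all genes. At an unadjusted p under 0.05, 8 of the 12 were lower, against 11.3% of all genes tested, and 0 passed the adjusted threshold. Their summed level was 845 to 1242 FPKM in VNS-TAC and 1321 to 1355 FPKM in Ctrl-TAC, and none of the 12 defining markers was at 0 throughout. Gsn and Dcn made up most of this sum, and both overlapped between groups. Gsn was at 357.2 to 823.42 FPKM in VNS-TAC against 693.1 to 745.77, and Dcn at 151.6 to 387.71 against 256.82 to 285.31. The part of cell composition in the Xirp2 values was not tested. The genes nearest to the mean profile of the 8 were Ap1s2, Lpar1, Kmt5a, Psma4 and Moap1, at 0.05 to 0.06 against a median of 0.29.

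Of 9 further genes of the same protein families, 8 were in the table and 6 passed the filter. Of the 6, 5 were lower on average, 1 at an unadjusted p under 0.05 and 0 past the adjusted threshold, with a median log2 fold change of -0.37. Of all genes tested, 11.3% were lower at that unadjusted p. Lasp1, an actin-binding LIM protein of the nebulin family, was at 20.46, 14.87 and 13.58 FPKM across VNS-TAC 1, 2 and 3, with Ctrl-TAC between 21.77 and 24.19. Ankrd23, the third muscle ankyrin repeat protein, was at 670.92, 496.68 and 289.72 FPKM against 542.56 to 750.98, and the groups overlapped through VNS-TAC 1. Nebl, the cardiac nebulette, was at 10.24, 20.51 and 20.61 FPKM against 20.83 to 26.14. The log2 fold changes were -0.50, -0.52 and -0.51 (limma adjusted p = 0.262, 0.429 and 0.384). Nebl has a GC content of 40.1% and lay at -1.14, -0.20 and -0.19 relative to Ctrl-TAC in VNS-TAC 1, 2 and 3. Genes under 42% GC lay at -0.67, -0.18 and -0.05 in these libraries. The part of GC content in the Nebl values was not tested. Fhl3 was the gene of this list with a higher mean, at 7.54 ± 3.62 FPKM against 5.98 ± 0.43 (SD, n = 3).

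Of 30 genes for titin and for proteins of the Z-disc and intercalated disc, 29 were tested. Of these, 22 had a lower mean log2 value, 7 of them at an unadjusted p under 0.05. At that level 0 were higher, and 0 passed the adjusted threshold. Their median log2 fold change was -0.17, and 9 were lower and 2 higher without overlap. Of all genes tested, 11.3% were lower at that unadjusted p, and 17.4% were lower and 8.01% higher without overlap. Ttn, the titin gene to which the ankyrin and LIM adaptors bind, was at 28.04, 49.40 and 31.37 FPKM across VNS-TAC 1, 2 and 3, with Ctrl-TAC between 54.15 and 61.53. Its log2 fold change was -0.69 ± 0.21 (SE; limma adjusted p = 0.251). Enah, an actin regulator known to bind Xin proteins, was at 28.94, 37.78 and 35.06 FPKM against 39.80 to 49.49. Ttn and Enah have transcripts of at least 10000 bases, a class with a median log2 fold change of -0.26. The part of length in their values was not tested. Ctnnb1, beta-catenin, was at 88.93, 106.14 and 116.44 FPKM against 122.77 to 139.28. In Palld, the actin cross-linker palladin, and in Ctnna3 and Pdlim5 the VNS-TAC libraries were also all below the Ctrl-TAC libraries, with log2 fold changes of -0.40, -0.40 and -0.32 (adjusted p = 0.264, 0.28 and 0.327).

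Of 16 other genes known to rise under mechanical load, 14 were tested and 12 had a lower mean log2 value. Among these 12, Myh7 and Ccn2 had a higher mean FPKM in VNS-TAC, at 2009 against 877.3 and 225.5 against 207.6. At an unadjusted p under 0.05, 8 were lower and 0 higher, against 11.3% and 3.79% of all genes tested. Of the 14, 0 passed the adjusted threshold, and the median log2 fold change was -0.68. Nppa and Nppb, counted among the 12, stood near 0, at -0.03 and -0.15 (limma adjusted p = 0.98 and 0.825). Acta1 was the lowest of the list, at -2.44 ± 0.98 (SE; limma adjusted p = 0.31). It was at 968.46, 1381.96 and 84.89 FPKM across VNS-TAC 1, 2 and 3, with Ctrl-TAC between 1569.33 and 3986.29. Gdf15, a stress-induced cytokine, was at 14.31, 9.87 and 4.24 FPKM in libraries Ctrl-TAC 1, 2 and 3, and at 1.70, 1.56 and 1.33 FPKM in libraries VNS-TAC 1, 2 and 3, a log2 fold change of -1.92 ± 0.36 (SE; adjusted p = 0.182). Like Xirp2, it was highest in Ctrl-TAC 1 and lowest of the controls in Ctrl-TAC 3. Hbegf, a growth factor shed from the membrane, was at 14.76, 15.35 and 10.17 FPKM against 20.61 to 25.66. Ccn1, a known target gene of YAP, was at 91.11, 35.69 and 31.64 FPKM against 94.55 to 126.68. Ccn2, another such target, was highest in VNS-TAC 3, as Ankrd1 was, at 134.15, 84.61 and 457.74 FPKM against 165.64 to 290.24. Myh7, the slow myosin heavy chain, had the VNS-TAC order of Ankrd1, at 164.92, 434.86 and 5427.25 FPKM against 600.2 to 1127.94. Atf3, a stress-induced transcription factor, was at 14.40, 9.84 and 3.0 FPKM against 17.16 to 30.65. Rcan1, a target of calcineurin signalling, overlapped between groups at 137.47, 71.78 and 60.14 FPKM against 122.09 to 228.83. Myc also overlapped, at 3.47 ± 1.6 FPKM against 5.73 ± 0.63 (SD, n = 3).

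Immediate early and heat shock genes, which respond to handling of tissue, had lower mean values in VNS-TAC, as Xirp2 and most of these load genes did. Of 15, 14 had a lower mean log2 value, 10 at an unadjusted p under 0.05 and 0 past the adjusted threshold. At that unadjusted p, 11.3% of all genes tested were lower. Relative to Ctrl-TAC their mean lay at -0.77, -1.25 and -1.67 in libraries VNS-TAC 1, 2 and 3, with controls between -0.34 and 0.32. Their summed level was 167 to 374 FPKM in VNS-TAC and 361 to 548 FPKM in Ctrl-TAC. Egr1 is in this list and in the load list. The part of handling in the values of the adaptor genes was not tested.

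Transcription factors and cofactors of cardiac and stretch-responsive genes were near the level of all genes, the median of their 20 log2 fold changes being -0.05. Of these, 8 were higher and 12 lower on average, and 0 passed the adjusted threshold. At an unadjusted p under 0.05, 1 was higher and 0 lower, against 3.79% and 11.3% of all genes tested. Nkx2-5, a cardiac homeobox factor, was at 86.97, 66.67 and 72.00 FPKM across VNS-TAC 1, 2 and 3, with Ctrl-TAC between 50.39 and 54.52, a log2 fold change of 0.50 ± 0.13 (SE; limma adjusted p = 0.232). Yap1 was at 23.97, 26.91 and 29.14 FPKM against 30.07 to 31.84, and Wwtr1, which encodes the related cofactor TAZ, at 14.24, 18.64 and 19.06 against 20.78 to 21.65. In both, every VNS-TAC library was below every Ctrl-TAC library, by a mean log2 fold change of -0.22 and -0.29 (limma adjusted p = 0.398 and 0.365). Mef2c, also without overlap, had a larger difference, at -0.41 (limma adjusted p = 0.349). Of the 20, 5 were lower and 1 higher without overlap, against 17.4% and 8.01% of all genes tested. RNA levels of these factors do not measure their activity.

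Markers of other cells and regions were examined as well. Endothelial markers had 10 of 12 lower (median log2 fold change -0.27), smooth muscle and pericyte markers 12 of 12 (-0.48) and macrophage markers 9 of 11 tested (-0.20). The 12 neutrophil markers, 6 of which were below the filter, summed to 71.1, 58.2 and 185.7 FPKM in libraries VNS-TAC 1, 2 and 3, with controls between 5.85 and 9.68. Red cell genes summed to 1503, 310.2 and 25.1 FPKM in libraries VNS-TAC 1, 2 and 3, with controls between 183 and 578. None of these genes passed the adjusted threshold. Atrial markers had 7 of 8 lower with a median of -0.06, and their mean stood at -0.57, -0.10 and 0.36 from that of Ctrl-TAC in libraries VNS-TAC 1, 2 and 3. Ankrd1 had the same order, at -1.96, -0.83 and 0.49. Of the 4 atrial markers with the highest level, Nppa and Myl7 had this order. Myl4 (-0.01, 0.05 and -0.14) and Sln (-0.56, -0.11 and -0.11) did not. Among controls 1, 2 and 3, where the atrial mean was 0.42, -0.98 and 0.56, Ankrd1 was at 0.34, -0.19 and -0.15. The atrial median in these controls was 0.13, -1.02 and 0.88. The part of atrial tissue in the Ankrd1 values was not tested. Of the 12 fast skeletal markers, 4 passed the filter, and 2 of these 4 were lower.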

How the data were processed

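RNA from 6 mouse heart libraries (3 VNS-TAC, 3 Ctrl-TAC) was enriched for messenger RNA on oligo-dT beads (per the labels' protocols). The authors deposited FPKM values to 2 decimals, per the file headers. The submitters' processing notes name GRCm38, featureCounts 1.5.0-p3, DESeq 1.8.3 and HISAT but not their roles. The sources used here do not give the annotation or counting settings. Symbols came from RefSeq (GRCm38.p6) for 17890 IDs and GENCODE M21 for 16 more, and transcript length and GC content from the longest GENCODE M21 transcript.

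Values were analysed as log2(FPKM + 1) for the 11422 genes whose mean reached 1 FPKM. Counts of genes higher or lower on average refer to means on this scale. The groups were compared with limma 3.58.1 in R 4.3.3 (intensity trend, Benjamini-Hochberg adjustment over all genes, threshold 0.05). The code was run on simulated data with the same spread in both groups. That run does not cover the wider spread of the VNS-TAC libraries. Ratios within libraries were compared with 2-sided exact permutation tests over 20 assignments. Tables and figures used Python 3.11.15, pandas 2.3.3, numpy 2.4.6 and matplotlib 3.10.9. The genes and lists were chosen with earlier results of these data known. From the family, partner, load and regulator lists up to 6 genes with the smallest unadjusted p were eligible to be named, from marker lists the 4 with the highest level, and for Xirp2 and the mean of the 8 the 5 genes of most similar profile. Myh1, Myh2, Myh4, Ccn2, Myh7, Nppb and Acta1 were named outside that rule, after their values were seen. The ratios within families were also chosen after the values were seen.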

Additional observations from a re-analysis of the deposited data

How the results depend on the processing

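The comparison was repeated under 19 alternatives, with other pseudocounts, filters, scalings and limma settings, the GC or the length trend removed (the latter chosen after seeing the data), and single libraries left out. The number of genes past the adjusted threshold was 0, and it was 1 when a mean of 5 FPKM was required, 2 with size factors, with quantile normalization and with the GC trend removed, 1016 with array weights, and between 0 and 3 with each library left out. Among the 8 adaptor genes 1 passed with array weights, namely Xirp2 (log2 fold change -1.42, adjusted p = 0.0175), in a fit that weighted VNS-TAC 1, 2 and 3 at 0.246, 2.82 and 0.247. In the other 18 alternatives none of the 8 passed, and the adjusted p of Xirp2 was at most 0.674. Fhl2 changed sign without VNS-TAC 3, to 0.17, and was -0.71 without VNS-TAC 1. Apart from that case, the 8 genes were lower in VNS-TAC in every alternative in which they were tested, Ankrd2 not being tested with the filter at 5 FPKM. The median log2 fold change of the 8 ranged from -0.45 to -0.22, within 1 SD between libraries (0.14) of its value. Higher genes made up 25.2% of those with an unadjusted p below 0.05, and 46.7% with size factors, 54.4% after quantile normalization, 10.8% with every library at the same sum, 9.76% relative to cardiomyocyte markers, 43.2% (GC) and 48.7% (length) after removal of a trend. In the main fit, as in those with 1 library left out, the spread of a gene is shared between groups. No paired analysis was possible because table and labels number the VNS-TAC libraries differently (1 to 3 and 4 to 6), so no replicate block could be fitted. FPKM values carry no counts, so depth is an estimate, and Ankrd2 is the member that it limits.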

Other observations

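The profiles nearest to Fhl2 and Ankrd1, examined after their values were seen, differed from those nearest to Xirp2. Nearest to Fhl2 were Hjv, Apold1, Afg1l, Adora2a and Cox7a1, at mean absolute differences of 0.07 to 0.10 (log2) against a median of 0.45 over all genes. Hjv, the BMP co-receptor haemojuvelin, ranged from 50.17 to 180.18 FPKM in VNS-TAC and from 141.14 to 153.0 in Ctrl-TAC. Cox7a1, the muscle isoform of a cytochrome c oxidase subunit, ranged from 711.43 to 1867.39 FPKM in VNS-TAC and from 1484.5 to 1698.87 in Ctrl-TAC. Among the 5 genes nearest to Ankrd1, at 0.23 to 0.27 against a median of 0.65, was Iigp1, an interferon-induced GTPase. Relative to Ctrl-TAC it lay at -1.83, -0.61 and 0.41 in libraries VNS-TAC 1, 2 and 3.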
